A study of Mus musculus with 12 samples.

Results

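The CDC-like kinases and the SR splicing factors were followed in mouse gastruloids as 9 genes, the kinases *Clk1*, *Clk2*, *Clk3* and *Clk4* and the SR protein genes *Srsf2*, *Srsf3*, *Srsf5*, *Srsf6* and *Srsf7*, out of 55141 genes in the deposited count table. They were matched by symbol and read by Ensembl identifier, and they had been selected on measured values of these same libraries. Which comparison had led to the choice is not recorded, so the values of the 9 genes are described in every comparison. Calls of these genes are listed beside the share of all genes, and nothing is read from them in any comparison. Tests are given for other genes of the same machinery, though their lists were also chosen with earlier results of these data known.

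Gastruloids are aggregates of mouse embryonic stem cells that form derivatives of the germ layers and elongate along an anterior-posterior axis. Those measured here had the 129/SVEV background, started from 300 cells per well, received 3 µM of the Wnt agonist CHIR 99021 for 24 h from 48 h, and were collected at 120 h. They differed in when they were embedded in a Dextran-PEG hydrogel, at 72 h or at 96 h, and in the concentration of the gel, 1.0 mM or 1.5 mM. As all were collected at 120 h, those embedded at 72 h also spent longer in the gel. The stage at embedding and the time spent in the gel cannot be told apart. Each of the 4 combinations had 3 replicates of about 30 pooled gastruloids, so a library averages over gastruloids and over cell types, and each was released from its gel with dextranase before RNA was taken. Gastruloids grown without a gel were not analysed here.

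SR proteins bind exonic sequences of pre-mRNA and help the spliceosome to select splice sites, through a domain rich in arginine and serine dipeptides. Kinases of the Clk family phosphorylate this domain in the nucleus, which releases SR proteins from nuclear speckles, while kinases of the SRPK family act on it mainly in the cytoplasm and promote import into the nucleus. Both families are known for transcripts that are held in the nucleus with an intron retained, or that are removed by nonsense-mediated decay (NMD) after a poison exon is included. In cultured cells, *Clk1* and *Clk4* are known for retained introns whose splicing depends on Clk activity and temperature.

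The libraries held 23011791 to 27609422 counts, and the 9 genes received between 1347 counts, for *Clk4*, and 23630 counts, for *Srsf6*, in a single library. At these counts the spread between replicates, more than counting error, sets the precision. Libraries of a group differed by more than sampling noise, and the study's methods describe the replicates as biological, without saying which steps of culture they shared. A single gene, *CT010467.1*, took 6.12% of the counts in replicate 1 of the 72 h, 1.5 mM group. It took 4.21% in replicate 2 of the 96 h, 1.5 mM group. The top gene of each of the other libraries took 0.875% to 2.67%. Marker genes of the cell types a gastruloid can hold were detected, and none of the listed markers was at 0 in all 12 libraries. Replicate 2 of the 72 h, 1.0 mM group was the highest library of its group for 8 of the 9 genes, *Clk2* being the exception.

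The annotation placed the 9 genes on 7 chromosomes of mm10. *Clk1* (ENSMUSG00000026034) lies at chr1:58412000-58424066 on the minus strand, *Clk2* (ENSMUSG00000068917) at chr3:89164795-89176921 on the plus strand, *Clk3* (ENSMUSG00000032316) at chr9:57750709-57765860 on the minus strand and *Clk4* (ENSMUSG00000020385) at chr11:51261730-51281766 on the plus strand. The SR protein genes are shorter. *Srsf2* (ENSMUSG00000034120) spans chr11:116849901-116853094 on the minus strand, *Srsf3* (ENSMUSG00000071172) chr17:29032628-29043373 on the plus strand and *Srsf5* (ENSMUSG00000021134) chr12:80945504-80950507 on the plus strand. *Srsf6* (ENSMUSG00000016921) spans chr2:162931528-162937121 on the plus strand and *Srsf7* (ENSMUSG00000024097) chr17:80200080-80207305 on the minus strand.

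Each of the 9 genes had at least 1 annotated NMD transcript and at least 1 annotated retained-intron transcript. Of all 21951 protein-coding genes in the annotation, 20.8% had an NMD transcript and 41.5% a retained-intron transcript. *Clk1* had 7 retained-intron transcripts among 13 and *Clk4* had 7 among 14, the highest numbers of the 9 genes. A count per gene sums over these transcripts, so the values below do not separate coding from non-coding forms. Exons overlap genes on the opposite strand for *Clk3*, by 1284 bases with *Edc3*, and for *Srsf2*, by 460 bases with *Mettl23* and 288 bases with *Mfsd11*. An exon of the small RNA gene *Gm25082* overlaps *Clk4* by 59 bases on the same strand. The strand setting used for counting is not stated in the sources used here, and *Clk3* and *Srsf2* are uncertain to that extent. The overlap of *Clk4*, on the same strand, does not depend on that setting.

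Promoter windows of 250 bases before to 50 bases after the start (RefSeq, GRCm38.p6) were available here for 8 of the 9 genes, as the set used held none for *Clk1*. They were searched on both strands for 7 motifs, each named with its letters. The CRE (TGACGTCA), the full site of the CREB and ATF factors, was found in the window of *Clk4*, and 1.79% of all 32851 windows held it. The core of the NRF1 site (CGCATGCG) was found in *Clk4* and *Srsf7*, against 1.87% of all windows. Both motifs read the same on either strand and did not overlap. The windows of *Clk4* and *Srsf7* are shown because they share a motif that is uncommon among promoters, although the levels of these genes did not follow each other across libraries (below). Capitals mark the CRE, which begins 65 bases before the start of *Clk4*, and the NRF1 core. The NRF1 core begins 6 bases before the start of *Clk4*, so that it runs across this start, and 65 bases before that of *Srsf7*. The first window lies on the plus strand at chr11:51262864-51263163, inside the span of *Clk4* given above, and the second on the minus strand at chr17:80207256-80207555.
Clk4: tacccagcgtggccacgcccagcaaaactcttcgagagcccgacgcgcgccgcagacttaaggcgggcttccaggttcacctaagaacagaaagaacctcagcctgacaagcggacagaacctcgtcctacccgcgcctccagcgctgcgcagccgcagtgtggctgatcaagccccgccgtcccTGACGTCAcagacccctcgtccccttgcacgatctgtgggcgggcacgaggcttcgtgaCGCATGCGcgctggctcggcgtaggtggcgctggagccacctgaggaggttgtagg
Srsf7: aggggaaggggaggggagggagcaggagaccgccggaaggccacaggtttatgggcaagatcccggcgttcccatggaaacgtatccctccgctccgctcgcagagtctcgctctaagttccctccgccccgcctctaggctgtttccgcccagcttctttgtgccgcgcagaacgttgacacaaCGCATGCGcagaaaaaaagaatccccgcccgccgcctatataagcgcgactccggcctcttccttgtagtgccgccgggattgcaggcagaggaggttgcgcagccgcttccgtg

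The other 5 motifs were spread differently over the windows. The ETS motif (CCGGAAGT) was found at 2 positions in *Srsf5*, against 3.89% of all windows with at least 1 match. The CCAAT box (CCAAT) was found in *Clk2*, *Srsf2* and *Srsf3* (37.4% of all windows) and the TATA box (TATAAA) in *Srsf2* and *Srsf3* (13.6%). The GC box (GGGCGG) was found in 7 of 8 windows, against 35.7% of all. The heat shock motif (GAANNTTC) was found in 0 of 8 windows, against 7.86% of all. The GC content of the 8 windows ran from 56.0% to 74.7%, and the median of all windows was 52.7%.

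SR protein transcripts were more abundant than Clk transcripts in every library. In FPKM, the deposited unit that scales fragments to transcript length and library size, the mean level over 12 libraries was 323 ± 24.7 (SD) for *Srsf2*, 227 ± 10.1 for *Srsf5*, 205 ± 16.9 for *Srsf7*, 196 ± 20.9 for *Srsf3* and 165 ± 14.0 for *Srsf6*. Among the kinases it was 67.0 ± 14.2 for *Clk1*, 30.2 ± 5.28 for *Clk2*, 30.0 ± 6.54 for *Clk4* and 24.2 ± 2.47 for *Clk3*. *Srsf6*, the least abundant of the 5 SR protein genes, exceeded *Clk1* in 12 of 12 libraries. The order of *Clk2* and *Clk4* was not separable, with *Clk2* above *Clk4* in 5 of 12 libraries, and that of *Srsf7* and *Srsf3* held in 9 of 12. *Srsf2* was above *Srsf5*, *Srsf3* above *Srsf6* and *Clk1* above *Clk2* in 12 of 12 libraries, *Srsf5* above *Srsf7* in 11 and *Clk4* above *Clk3* in 10.

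For the effect of the embedding time and of the gel, levels of each gene are given in CPM, counts scaled to the library totals after TMM normalization. All log2 fold changes are given with their standard error (SE), with negative values for lower levels after embedding at 72 h than at 96 h. In 1.5 mM gels, levels of all 4 kinases were lower after embedding at 72 h than at 96 h, with no overlap between the groups. The values pointed the same way in 1.0 mM gels, but the groups of each kinase overlapped. The plot of levels by library shows both.

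*Clk1*, the kinase with the highest level, had 184, 206 and 203 CPM in the 72 h group of 1.5 mM gels and 249, 273 and 267 CPM in the 96 h group. The values in 1.0 mM gels were 142, 202 and 154 CPM after 72 h and 192, 192 and 196 CPM after 96 h. The 3 libraries embedded at 96 h in 1.5 mM gels were thus the highest of the 12, and replicate 2 of the 72 h group exceeded the 96 h group in 1.0 mM gels. The log2 fold change was -0.41 ± 0.0643 in 1.5 mM gels (fold 0.750) and -0.21 ± 0.116 in 1.0 mM gels (fold 0.862). Without replicate 2 of the 72 h group the latter became -0.38, and without replicate 1 it became -0.11.

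*Clk4*, the closest paralogue of *Clk1*, had 62.0, 78.6 and 76.6 CPM after 72 h in 1.5 mM gels and 96.7, 102 and 106 CPM after 96 h. Its levels in 1.0 mM gels were 57.1, 80.8 and 63.4 CPM after 72 h and 77.2, 82.0 and 79.7 CPM after 96 h. The pattern over the 4 groups was that of *Clk1*, with the highest 3 libraries again those embedded at 96 h in 1.5 mM gels. The log2 fold change was -0.49 ± 0.0913 in 1.5 mM gels and -0.24 ± 0.115 in 1.0 mM gels, the latter -0.40 without replicate 2 of the 72 h group and -0.14 without replicate 1. The ratio of *Clk1* to *Clk4* counts, which does not depend on the scaling of libraries, stayed between 2.33 and 2.97 over the 12 libraries.

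*Clk2*, a kinase of the same dual specificity for serine and tyrosine as the other 3, had the lowest fold of the 9 genes in both gels. It had 89.1, 86.6 and 86.0 CPM after 72 h in 1.5 mM gels and 125, 117 and 126 CPM after 96 h. At 1.0 mM it had 98.8, 95.8 and 76.0 CPM after 72 h and 123, 96.9 and 115 CPM after 96 h, where replicate 2 of the 96 h group fell below replicate 1 of the 72 h group. The log2 fold change was -0.50 ± 0.0603 in 1.5 mM gels (fold 0.707) and -0.30 ± 0.115 in 1.0 mM gels (fold 0.811), or -0.19 at 1.0 mM without replicate 3 of the 72 h group. Its highest levels, in contrast to those of *Clk1* and *Clk4*, were found in libraries of both gels embedded at 96 h.

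*Clk3* had the smallest differences of the kinases. It had 83.7, 91.2 and 85.3 CPM after 72 h in 1.5 mM gels and 96.5, 103 and 105 CPM after 96 h, with a log2 fold change of -0.24 ± 0.0650. At 1.0 mM it had 83.9, 91.0 and 72.2 CPM after 72 h and 88.6, 85.2 and 82.9 CPM after 96 h, and the value of -0.05 ± 0.0919 turned to 0.04 without replicate 3 of the 72 h group.

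**Figure D1:**
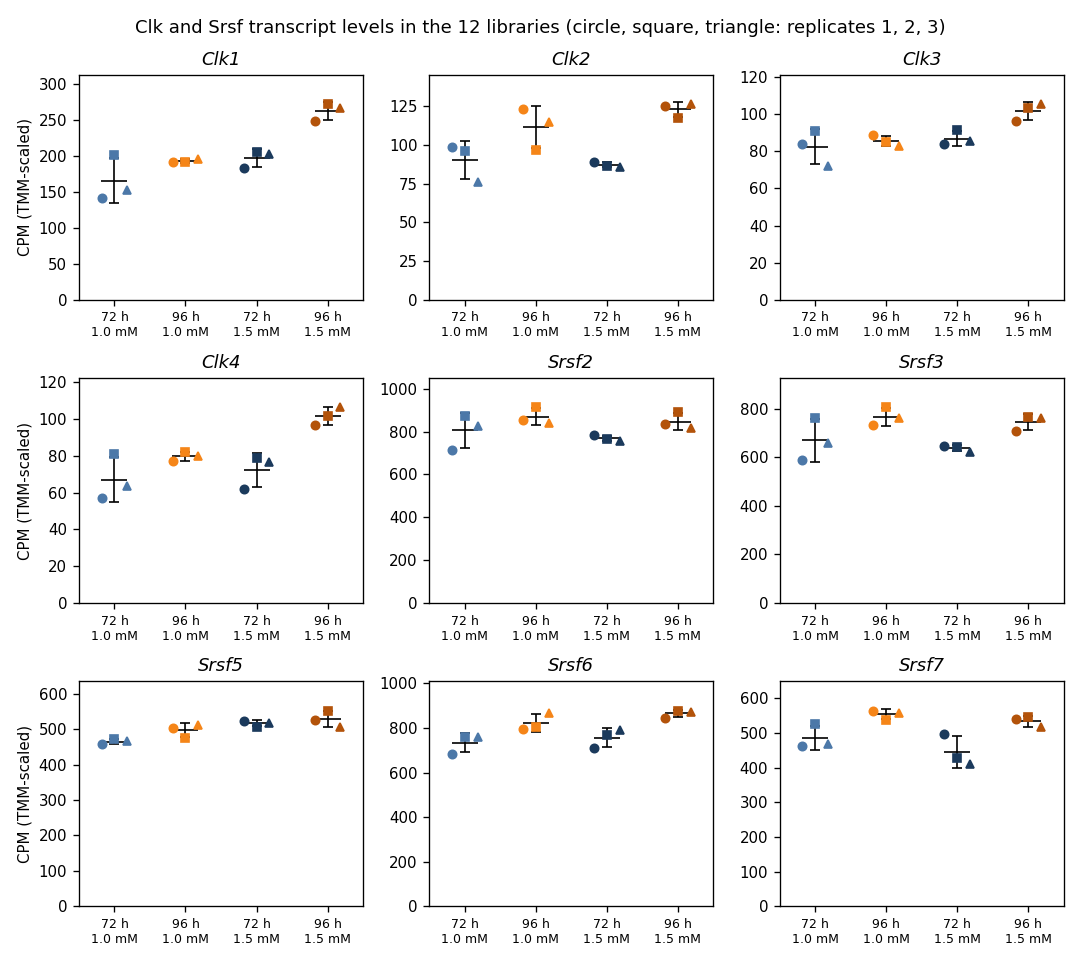
Levels of the 4 Clk and 5 Srsf genes in TMM-scaled CPM (vertical axes, from 0) in the 4 groups (horizontal axes, embedding time and gel concentration). Points are libraries, with the shape giving the replicate number, and horizontal bars with whiskers are the mean ± SD of 3 libraries. *Clk1* and *Clk4* were highest in the 3 libraries embedded at 96 h in 1.5 mM gels, while *Srsf5* ran from 458 to 553 CPM over all 12.

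Among the SR protein genes, *Srsf7*, which encodes an SR protein with a zinc knuckle, had 496, 427 and 411 CPM after 72 h in 1.5 mM gels and 540, 545 and 516 CPM after 96 h. Its levels at 1.0 mM were 461, 525 and 468 CPM after 72 h and 564, 538 and 558 CPM after 96 h. The groups did not overlap in either gel, and the log2 fold changes were -0.27 ± 0.0776 and -0.19 ± 0.0840. *Srsf3*, the gene of the smallest SR protein, had 647, 642 and 622 CPM after 72 h in 1.5 mM gels and 708, 767 and 762 CPM after 96 h. At 1.0 mM it had 587, 762 and 658 CPM after 72 h and 732, 805 and 759 CPM after 96 h, with replicate 2 of the 72 h group inside the range of the 96 h group. Its log2 fold changes were -0.23 ± 0.0598 in 1.5 mM gels and -0.19 ± 0.105 in 1.0 mM gels, the latter -0.29 without replicate 2 of the 72 h group and -0.10 without replicate 1.

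*Srsf6*, encoding an SR protein with a pair of RNA recognition motifs, had means of 756 ± 42.2 CPM (SD, n = 3) after 72 h and 865 ± 17.5 CPM after 96 h in 1.5 mM gels, and of 734 ± 44.1 and 823 ± 39.5 CPM in 1.0 mM gels. It did not overlap between embedding times in either gel, with log2 fold changes of -0.20 ± 0.0625 and -0.16 ± 0.0878. *Srsf2*, the gene of the nuclear speckle protein SC35, had means of 768 ± 12.7 and 847 ± 39.9 CPM in 1.5 mM gels (-0.15 ± 0.0609, no overlap) and of 805 ± 81.0 and 869 ± 38.7 CPM in 1.0 mM gels (-0.11 ± 0.0973, overlapping), where the value was -0.17 without replicate 2 of the 72 h group and -0.03 without replicate 1. *Srsf5* was the member with the least difference by embedding time in 1.5 mM gels, with means of 517 ± 8.82 and 528 ± 23.4 CPM, overlapping groups and a log2 fold change of -0.04 ± 0.0582, or -0.0035 without replicate 2 of the 96 h group. In 1.0 mM gels it had 465 ± 6.73 and 497 ± 19.0 CPM, with a log2 fold change of -0.09 ± 0.0771 and no overlap.

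Over the 9 genes, the median log2 fold change with embedding at 72 h was -0.24 in 1.5 mM gels and -0.19 in 1.0 mM gels, and over all genes tested it was -0.01 in both. The quartiles over all genes were -0.20 and 0.20 in 1.5 mM gels, and -0.16 and 0.17 in 1.0 mM gels. The medians were -0.45 for the 4 kinases and -0.20 for the 5 SR protein genes in 1.5 mM gels, and -0.23 and -0.16 in 1.0 mM gels. At an adjusted p below 0.05 (edgeR), 6 of the 9 were called lower in 1.5 mM gels, the 4 kinases, *Srsf3* and *Srsf7*, where 8.98% of 15683 genes were. The kinases *Clk1*, *Clk2* and *Clk4* were called with each library left out in turn, and without replicate 2 or 3 of either group they were the 3 members left. DESeq2 called 7 members, with *Srsf6* in addition. With all 12 libraries in the fit edgeR called 4, which were *Clk1*, *Clk2*, *Clk4* and *Srsf7*. In 1.0 mM gels 0 of the 9 were called, where 3.27% of 15763 genes were called lower, and 2 had an unadjusted p below 0.05 (22.9% of genes). DESeq2 called 0 of the 9 there as well. Without replicate 2 of the 72 h group edgeR called *Clk1* and *Clk4* there, among 1680 genes. With no filter on low counts it called *Clk2*, among 2283 genes. An unadjusted p below 0.05 was reached by 8 members in 1.5 mM gels (35.1% of genes). Groups did not overlap, with lower values after 72 h, for 8 of the 9 in 1.5 mM gels (20% of genes) and for *Srsf5*, *Srsf6* and *Srsf7* in 1.0 mM gels (13.8% of genes). No member was called with an absolute log2 fold change above 1 in any comparison, where 4.3% of genes were for embedding time in 1.0 mM gels, 3.18% in 1.5 mM gels and 0% between gels. Since the members were chosen with such results known, nothing is read from these medians and counts, nor from calls that held with a library left out. As these are bulk samples, fewer cells of a type and less RNA per cell cannot be told apart.

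**Figure D2:**
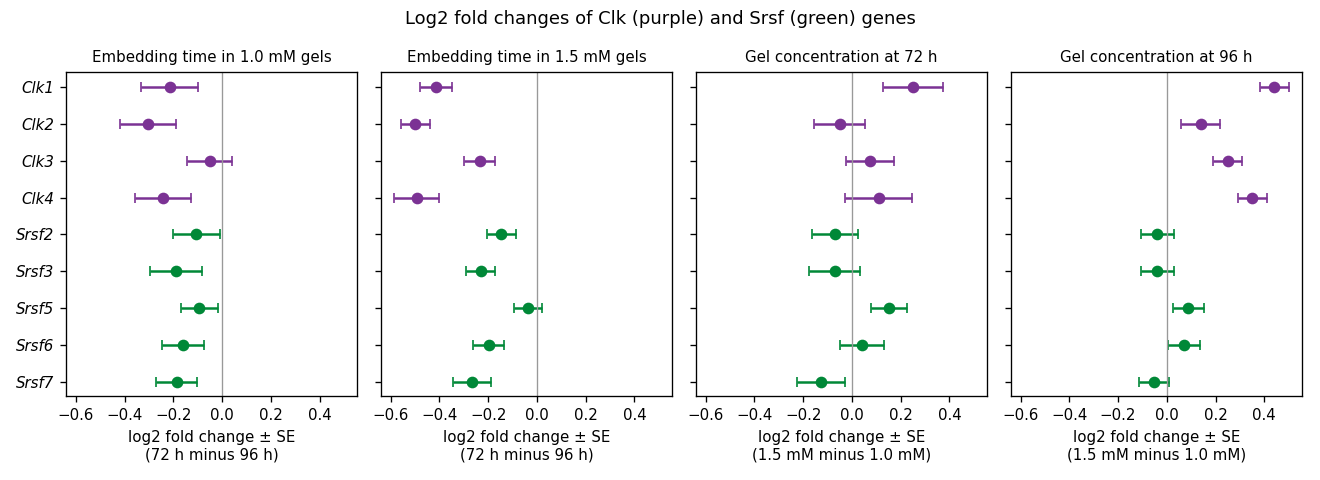
Log2 fold changes of the 9 genes with their SE (horizontal axes) in the 2 comparisons of embedding time, as 72 h minus 96 h, and the 2 of gel concentration, as 1.5 mM minus 1.0 mM, from 3 libraries per group. The 4 kinases lie at -0.50 to -0.24 for embedding time in 1.5 mM gels, and the SR protein genes lie between -0.13 and 0.15 in both gel comparisons.

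After embedding at 96 h, *Clk1*, *Clk3* and *Clk4* had higher levels in 1.5 mM gels than in 1.0 mM gels without overlap, while *Clk2* and the 5 SR protein genes overlapped between gels. Fold changes here are positive for higher levels in 1.5 mM gels. *Clk1* had 263 ± 12.5 CPM in 1.5 mM gels and 193 ± 2.72 CPM in 1.0 mM gels, a log2 difference of 0.44 ± 0.0581. *Clk4* had 102 ± 4.83 and 79.6 ± 2.43 CPM (0.35 ± 0.0608), and *Clk3* had 102 ± 4.64 and 85.6 ± 2.88 CPM (0.25 ± 0.0601). These 3 kinases did not overlap between gels, where 7.45% of 15861 genes did not overlap with higher values in 1.5 mM gels. *Clk2* was at 0.14 ± 0.0800, or at 0.049 without replicate 2 of the 1.0 mM group, and the 5 SR protein genes lay between -0.05 and 0.09. At an adjusted p below 0.05, edgeR called 0 of the 9 members and 0% of genes, with 3 members and 9.95% of genes at an unadjusted p below 0.05. DESeq2 called *Clk1* and *Clk4* there, among 97 genes. Without replicate 1 or replicate 3 of the 1.5 mM group, edgeR called *Clk1*, among 12 and 26 genes. When the fit allowed for differences between replicate numbers, *Clk1*, *Clk3* and *Clk4* passed in edgeR, among 289 genes. Whether equal numbers share a batch is not stated in the labels, so that fit is given as an alternative (below).

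After embedding at 72 h the groups of each kinase overlapped between gels, with *Clk1* at 0.25 ± 0.124, *Clk4* at 0.11 ± 0.138, *Clk3* at 0.07 ± 0.0987 and *Clk2* at -0.05 ± 0.105. These values depended on single libraries of the 1.0 mM group, with *Clk1* at 0.42 and *Clk4* at 0.26 without replicate 2, and *Clk1* at 0.15 and *Clk4* at 0.0061 without replicate 1. *Srsf5* was the member without overlap, with 525, 507 and 518 CPM in 1.5 mM gels against 458, 471 and 466 CPM in 1.0 mM gels, a log2 difference of 0.15 ± 0.0754, where 5.97% of 15563 genes did not overlap with higher values in 1.5 mM gels. EdgeR called 0 members and 0% of genes at an adjusted p below 0.05. At an unadjusted p below 0.05 it was 0 members and 6.9% of genes, and DESeq2 called 0 members among 16 genes. The 4 comparisons share groups of libraries, so that the 3 libraries embedded at 96 h in 1.5 mM gels enter both the comparison of embedding time in 1.5 mM gels and that of gels at 96 h.

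The difference between the effects of embedding time in the 2 gels, estimated as an interaction on 12 libraries, was -0.19 ± 0.144 for *Clk1*, -0.19 ± 0.140 for *Clk2*, -0.18 ± 0.114 for *Clk3* and -0.24 ± 0.161 for *Clk4*. For the SR protein genes it was between -0.07 and 0.07. Each of these values was less than 2 times its SE, and a larger difference of the kinases in 1.5 mM gels than in 1.0 mM gels was not resolved with 3 libraries per group. Without replicate 2 of the 72 h, 1.0 mM group the interaction was -0.03 for *Clk1* and -0.09 for *Clk4*. EdgeR called 0 of 16388 genes for the interaction, with 4.32% at an unadjusted p below 0.05, and DESeq2 called 2.

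A ratio within a library does not depend on the scaling between libraries. Per 100 counts of the 5 SR protein genes, the 4 kinases had 16.4, 16.4 and 17.4 counts after embedding at 96 h in 1.5 mM gels. They had 13.3, 14.9 and 14.5 counts after 72 h in 1.5 mM gels, 13.9, 12.9 and 13.4 after 96 h in 1.0 mM gels, and 13.2, 13.8 and 11.5 after 72 h in 1.0 mM gels. The 96 h, 1.5 mM group thus lay above the other 9 libraries without overlap, and the other 3 groups overlapped in part. For *Clk1* alone the ratio was 7.20 to 7.69 in that group and 4.84 to 6.63 in the other 9 libraries, and for *Clk4* it was 2.80 to 3.07 and 1.96 to 2.53. *Clk2* and *Clk3* did not follow this pattern. The ratio of *Clk2* reached 3.57 after 96 h in 1.0 mM gels, and that of *Clk3* was 2.89 in replicate 1 of the 72 h, 1.0 mM group, inside the range of 2.79 to 3.04 of the 96 h, 1.5 mM group.

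**Figure D3:**
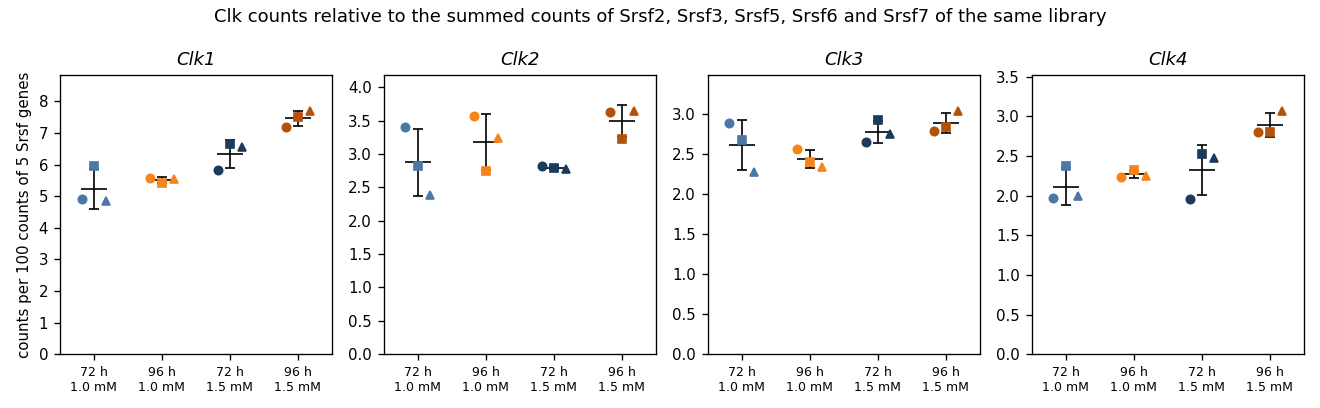
Counts of *Clk1*, *Clk2*, *Clk3* and *Clk4* per 100 summed counts of the 5 Srsf genes of the same library (vertical axes, from 0) in the 4 groups (horizontal axes). Points are libraries and bars with whiskers are the mean ± SD of 3 libraries. *Clk1* and *Clk4* are highest in the 3 libraries embedded at 96 h in 1.5 mM gels, at 7.20 to 7.69 and 2.80 to 3.07.

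The 9 genes did not vary as a single unit between libraries of the same embedding time. Pearson's r of log2 CPM between *Clk1* and *Clk4* was 0.89 over the 6 libraries embedded at 72 h and 0.98 over the 6 embedded at 96 h. *Clk1* and *Clk3* had 0.68 and 0.96, and *Srsf2* and *Srsf3* had 0.95 and 0.62. *Srsf7* ran against *Clk4*, at -0.16 and -0.78. These correlations are descriptions over 6 libraries that span both gels and share their depth and normalization. By the same measure, of 9559 genes outside the members and the gene lists with a mean of at least 10 CPM, those most like the mean of the 9 members in both sets of 6 libraries were *Dgcr8*, *Atg16l1*, *Tjap1*, *Crnde*, *Pan3*, *Rpl12*, *Nsmaf* and *Zbtb48*. The smaller of their 2 correlations was 0.93 for *Dgcr8* and 0.90 for *Atg16l1*, and 0.87 to 0.89 for the other 6. Among the genes of the lists, the snoRNA host gene *Gas5* was closest, with correlations of 0.92 and 0.90. The mean itself did not follow each member alike. Each member is part of the mean, so it was also compared with the mean of the other members. At 96 h that mean correlated at 0.21 to 0.85 with the kinases, *Srsf5* and *Srsf6*. With *Srsf2*, *Srsf3* and *Srsf7* it correlated at -0.53 to -0.32. At 72 h the correlations of members with the mean of the others ran from 0.016 for *Clk2* to 0.82 for *Clk1*. Likeness to the mean is thus not likeness to each member.

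Other genes of the splicing machinery were tested by embedding time, over all genes of each comparison. Their lists were chosen with earlier results of these data known, so the numbers called per list are descriptions. In 1.5 mM gels, SR and SR-related genes that passed the test were lower after 72 h. They were 3 of 6 other SR protein genes and 7 of 20 SR-related genes, against 0 called higher in either list, with 8.98% of all genes called lower and 10.4% called higher. *Srsf11*, which encodes a splicing factor with an arginine and serine rich domain, fell by 0.33 on the log2 scale (SE 0.0628, adjusted p = 0.0091, edgeR), *Srsf4* fell by 0.26 (SE 0.0545, adjusted p = 0.0121, edgeR) and *Srsf9* by 0.21 (SE 0.0645, adjusted p = 0.0461, edgeR). *Srsf1*, the founding member of the family, had a log2 fold change of 0.02 ± 0.0568. Of the SR-related genes, *Srek1*, which regulates splicing as a partner of SR proteins, fell by 0.41 (SE 0.0526, adjusted p = 0.0027, edgeR). It had 175, 181 and 178 CPM after 72 h and 228, 239 and 240 CPM after 96 h, with no overlap. *Rbm5*, a factor of the early spliceosome, fell by 0.36 (SE 0.0930, adjusted p = 0.0259, edgeR). The calls of *Srsf11* and *Srek1* were kept under each of 14 alternatives. That of *Rbm5* was lost without replicate 3 of either group or replicate 2 of the 96 h group, that of *Srsf4* without replicate 3 of the 96 h group, and that of *Srsf9* without replicate 2 or 3 of either group and with all 12 libraries in the fit. With 1 library left out, the 10 calls of both lists became 4 to 12 called lower, and they were 4 without replicate 3 of the 72 h group, replicate 2 of the 96 h group or replicate 3 of the 96 h group. Without replicate 1 of the 72 h group, 12 were called lower and 1 was called higher.

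For embedding time at 1.0 mM, 0 of these 26 SR and SR-related genes were called in edgeR and in DESeq2, with 3 at an unadjusted p below 0.05 in edgeR, all lower. The median log2 fold changes were -0.19 for the other SR protein genes and -0.07 for the SR-related genes, against -0.20 and -0.12 in 1.5 mM gels. The interaction was not called for any of them, so the lists are not shown to respond differently in the 2 gels.

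Kinases and phosphatases of SR proteins outside the Clk family went in both directions in 1.5 mM gels. *Srpk1*, the SR protein kinase of the cytoplasm, fell by 0.27 (SE 0.0610, adjusted p = 0.0159, edgeR), and *Ppp1cb*, a catalytic subunit of protein phosphatase 1, rose by 0.29 (SE 0.0525, adjusted p = 0.0080, edgeR). *Srpk1* had 178, 201 and 192 CPM after 72 h and 220, 233 and 234 CPM after 96 h, and *Ppp1cb* had 334, 321 and 338 CPM after 72 h and 269, 269 and 274 CPM after 96 h. Neither gene overlapped between embedding times. The call of *Ppp1cb* held under each of 14 alternatives, and that of *Srpk1* was lost without replicate 3 of either group or replicate 2 of the 96 h group. The other 7 genes tested in this list were not called, and *Srpk3* did not pass the filter on low counts.

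Among transcripts known for retained introns, both cyclin L genes fell with the earlier embedding in 1.5 mM gels. The cyclins L are partners of CDK11 and are found in nuclear speckles. *Ccnl2* fell by 0.45 (SE 0.0558, adjusted p = 0.0026, edgeR), with 235, 232 and 225 CPM after 72 h and 301, 325 and 316 CPM after 96 h. *Ccnl1* fell by 0.32 (SE 0.0539, adjusted p = 0.0057, edgeR). Both calls were kept under each of 14 alternatives, and the other 6 genes of this list were not called. Among 5 long non-coding RNAs, the snoRNA host genes *Snhg1* and *Gas5*, whose spliced transcripts are known targets of NMD, fell by 0.42 (SE 0.0810, adjusted p = 0.0099, edgeR) and 0.36 (SE 0.0620, adjusted p = 0.0068, edgeR). *Smg1*, the kinase of the NMD pathway, rose by 0.35 (SE 0.0590, adjusted p = 0.0064, edgeR), and the other 9 NMD factors were not called. The calls of *Snhg1*, *Gas5* and *Smg1* were kept under each of 14 alternatives.

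Most core spliceosome subunits, and most hnRNP proteins, which bind pre-mRNA and often act against SR proteins, were not called in 1.5 mM gels. Of 30 core subunits, 5 were lower and 1 was higher after 72 h, with a median of -0.02. *Snrpg* and *Snrpf*, of the Sm ring of the spliceosomal RNPs, fell by 0.38 (SE 0.0782, adjusted p = 0.0117, edgeR) and 0.32 (SE 0.0699, adjusted p = 0.0142, edgeR), and *Prpf8*, at the catalytic centre, rose by 0.26 (SE 0.0617, adjusted p = 0.0210, edgeR). Of 25 hnRNP and PTB genes, 2 were lower and 2 higher, with a median of 0.04. *Ptbp2* fell by 0.23 (SE 0.0611, adjusted p = 0.0289, edgeR) and *Hnrnph1* by 0.22 (SE 0.0579, adjusted p = 0.0309, edgeR), while *Hnrnpm* rose by 0.30 (SE 0.0842, adjusted p = 0.0371, edgeR) and *Hnrnpa1* by 0.25 (SE 0.0677, adjusted p = 0.0310, edgeR). The calls of these 4 and of *Prpf8* were each lost without replicate 2 or replicate 3 of either group. Those of *Hnrnph1* and *Hnrnpm* were also lost without replicate 1 of the 96 h group, and that of *Ptbp2* with all 12 libraries in the fit. The calls of *Snrpg* and *Snrpf* were lost without replicate 2 of the 96 h group. At 1.0 mM, edgeR called 0 genes of the core, hnRNP, NMD, retained intron and long non-coding RNA lists and of the list of other kinases and phosphatases, with 0 to 4 genes of a list at an unadjusted p below 0.05 and lower, and 1 higher in all. DESeq2 called 1 core subunit and 1 long non-coding RNA there, both lower.

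**Figure D4:**
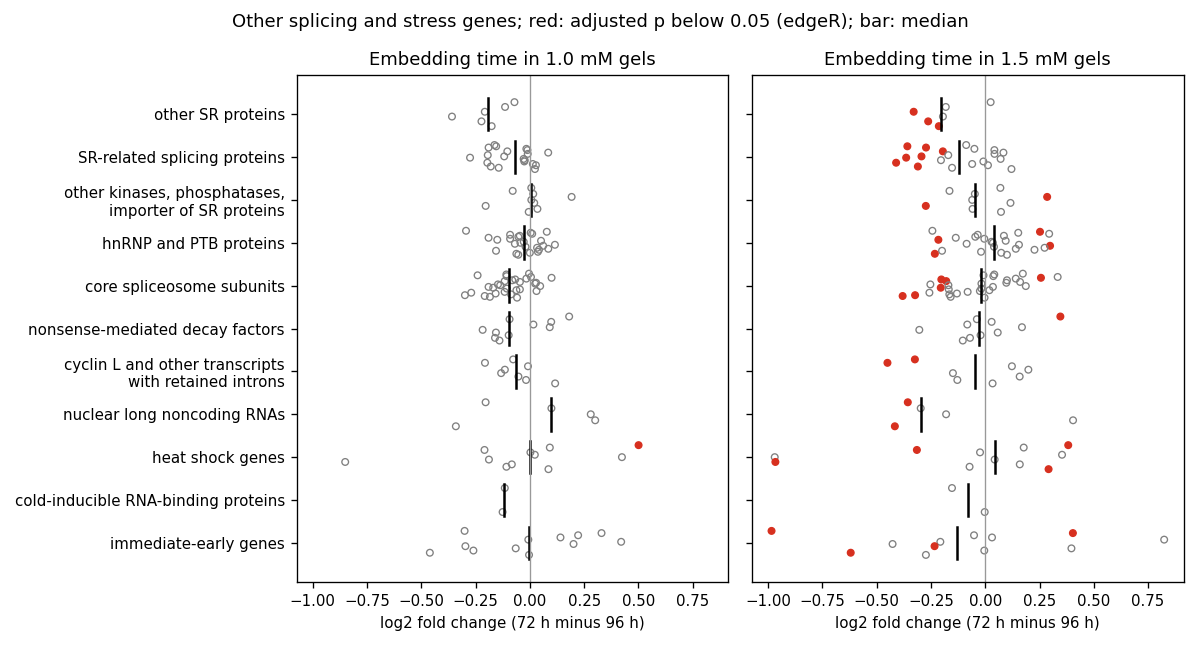
Log2 fold changes with embedding time (horizontal axes, 72 h minus 96 h) of the genes of 11 lists outside the members (vertical axis), in 1.0 mM gels on the left and 1.5 mM gels on the right. Each circle is a gene, red where its adjusted p in edgeR is below 0.05, and black bars are medians. In 1.5 mM gels the 10 red circles of the SR and SR-related lists lie below 0, and in 1.0 mM gels a single gene, *Bag3*, is red.

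Stress genes were read beside the members, since Clk activity and SR protein phosphorylation are known to respond to heat. *Bag3*, a co-chaperone, rose after embedding at 72 h in both gels, by 0.50 in 1.0 mM gels (SE 0.0976, adjusted p = 0.0086, edgeR) and by 0.38 in 1.5 mM gels (SE 0.0704, adjusted p = 0.0080, edgeR), though without replicate 3 of the 96 h group the call at 1.0 mM was lost. In 1.5 mM gels *Hsph1* rose by 0.29 (SE 0.0793, adjusted p = 0.0324, edgeR), and *Hspb1* and *Hsf1* fell by 0.97 (SE 0.242, adjusted p = 0.0241, edgeR) and 0.31 (SE 0.0669, adjusted p = 0.0134, edgeR). These 3 calls were lost without replicate 3 of either group or replicate 2 of the 96 h group, those of *Hsph1* and *Hspb1* also without replicate 2 of the 72 h group, and that of *Hsph1* also without replicate 1 of the 96 h group. The other 7 of 11 heat shock genes tested and both cold-inducible genes, *Cirbp* and *Rbm3*, were not called in that comparison.

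Immediate-early genes, which respond within minutes to stimulation or handling, were 3 lower and 1 higher of 12 after 72 h in 1.5 mM gels. *Atf3* fell by 0.98 (SE 0.266, adjusted p = 0.0318, edgeR), *Junb* fell by 0.62 (SE 0.121, adjusted p = 0.010, edgeR) and *Btg2* rose by 0.40 (SE 0.0847, adjusted p = 0.0127, edgeR). The call of *Atf3* was lost without replicate 2 or 3 of either group, with a fall of 0.62 without replicate 3 of the 96 h group, that of *Btg2* without replicate 2 of either group, and that of *Junb* with all 12 libraries in the fit. Between gels, the 12 genes had lower mean values in 1.5 mM gels at both embedding times, with medians of -0.65 at 72 h and -0.55 at 96 h. EdgeR called 0 of them, with 9 and 8 at an unadjusted p below 0.05, and DESeq2 called 3 and 1. *Fos*, singled out after its values were seen, had 79.4, 16.4 and 8.07 CPM after 72 h and 57.1, 8.79 and 11.9 CPM after 96 h in 1.0 mM gels, against 3.77 to 7.46 CPM in 1.5 mM gels. Replicate 1 was the highest library in both groups of 1.0 mM gels. Its part in the difference of the kinases between gels was not tested.

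Cell type markers also moved with the embedding time. Cardiac mesoderm markers were higher after 72 h, 6 of 6 in 1.0 mM gels and 5 of 6 in 1.5 mM gels, and their summed level was 392 to 660 CPM against 56.8 to 144 CPM in 1.0 mM gels, and 312 to 538 CPM against 138 to 212 CPM in 1.5 mM gels. Somite markers were lower, 6 of 6 and 4 of 6, with sums of 339 to 579 CPM against 996 to 1132 CPM in 1.0 mM gels, and 397 to 659 CPM against 805 to 1067 CPM in 1.5 mM gels. Pluripotent and germ-cell-like markers were lower for 5 and higher for 1 of 7 tested in both gels. The part of cell type composition in the levels of the 9 genes was not tested.

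Between gels at 96 h, 9 of the 20 SR-related genes had an unadjusted p below 0.05, all with higher values in 1.5 mM gels, while edgeR called 0 at an adjusted p below 0.05 and DESeq2 called 2, and 9.95% of all genes had an unadjusted p below 0.05. Cardiac mesoderm markers had higher values in 1.5 mM gels for 6 of 6 genes at 96 h, with a median log2 difference of 0.92, 5 at an unadjusted p below 0.05 and 0 called by edgeR or DESeq2. Other marker lists differed there too. DESeq2 called 3 posterior and neuromesodermal markers and 1 pluripotent and germ-cell-like marker lower, and 1 endothelial marker higher. At an unadjusted p below 0.05, 4 of 6 somite and 5 of 8 pluripotent and germ-cell-like markers were lower, and 2 of 4 neural tube markers higher. At 72 h, 3 of the 20 SR-related genes had an unadjusted p below 0.05, all higher in 1.5 mM gels, and 0 were called by either tool.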

How the data were processed

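Poly-A RNA of 12 libraries was sequenced by the authors as stranded, paired reads of 75 bp (RNA integrity above 9). According to the submitters' processing notes they used cutadapt 4.4, STAR 2.7.10b, Cufflinks 2.2.1.3 and DESeq2 with mm10. The authors deposited raw counts per gene, without normalization, and FPKM from Cufflinks in a second table. Columns with the authors' own fold changes and adjusted p-values were not used. The 36 mitochondrial genes were left out, as in the study's methods. Counts were filtered (filterByExpr, minimum count 10, minimum total 15), scaled by TMM and tested with the quasi-likelihood test of edgeR 4.0.16 (R 4.3.3) in pairs of groups, and for the interaction in all 12 libraries, with Benjamini-Hochberg adjustment over all genes tested. Tests ran from 15563 to 16388 genes, and genes with an adjusted p below 0.05 were called. CPM use the TMM-scaled totals of 12 libraries, except the sums of cell type markers, which use unscaled totals without mitochondrial genes. Correlations use log2 CPM with a prior count of 2. Totals of 23011791 to 27609422 leave counting error small against the spread between replicates. FPKM were used to order genes by level, since CPM do not account for length.

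The 9 genes and the gene lists were chosen with earlier results of these data known. Of the 11 other lists, the genes named are the 2 called genes with the largest rise and the 2 with the largest fall in each comparison of embedding time. By likeness, the 8 genes closest to the mean of the members were named from genes outside all lists, and the closest gene of the lists. *Srsf1*, *Srsf9* and *Fos* were named after their values were seen. The scripts were tested on simulated data. Alternatives were DESeq2 1.42.0, RLE and upper quartile scaling, no filter, a stricter filter (1 CPM in 3 libraries), mitochondrial genes kept, all libraries in a single fit, replicate number as a block, log2(1 + FPKM), an absolute log2 fold change above 1, and each library left out.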

Additional observations from a re-analysis of the deposited data

How the results depend on the processing

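Leaving out a library changed how many genes were called. For embedding time the 1457 calls in 1.0 mM gels became 731 (without 96 h replicate 3) to 1680, with 810 without 96 h replicate 2. The 3033 in 1.5 mM gels became 1181 to 4102, the latter without 72 h replicate 1. Without 72 h replicates 2 and 3 in turn these were 1614 and 1342, and without 96 h replicates 2 and 3 they were 1181 and 1224. The 10 SR and SR-related genes called lower in 1.5 mM gels became 4 to 12, and 0 above an absolute log2 fold change of 1. In 1.0 mM gels their number of 0 became 1 with no filter and with all 12 libraries in the fit. An absolute log2 fold change above 1 left 678 genes at 1.0 mM and 498 at 1.5 mM. With no filter on low counts the calls were 2283 in 1.0 mM gels, 322 between gels at 72 h, 333 between gels at 96 h and 238 for the interaction, against 0 for the last 3 in the main test. DESeq2 called 16, 97 and 2 genes for these 3, and RLE and upper quartile scaling called 2 each between gels at 96 h. There, leaving out 1.5 mM replicate 1 gave 12 and replicate 3 gave 26, so the range was 0 to 26. The median interaction of the 9 members, -0.07, ran from -0.16 to -0.018 with a library left out, the former without replicate 1 of the 72 h, 1.5 mM group. The cause of these changes was not tested.

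The labels do not say that a replicate number marks a shared batch, and in none of the 4 comparisons did every same-numbered pair correlate above 0.1, so the number was not used in the main test. Deviations of same-numbered libraries from their group means correlated at 0.044 to 0.30 in 12 pairs, above 0.1 in 8, and 10 of 12 pairs matched their own number best, a hint from the data that numbers may share a source. With the number as a block, calls were 2122 and 3885 for embedding time at 1.0 mM and at 1.5 mM, 43 and 289 between gels at 72 h and 96 h, and 5 for the interaction. *Clk1*, *Clk3* and *Clk4* were called between gels at 96 h under this block. No member's or listed gene's called direction reversed under any alternative.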
